A study of Mus musculus with 3 samples.

Results

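The clustered protocadherin genes are 59 of the 32531 gene rows in the count tables of this series, chosen by symbol: every alpha (Pcdha and Pcdhac), beta (Pcdhb) and gamma (Pcdhga, Pcdhgb and Pcdhgc) gene that the tables list. They fall into 6 classes: 14 alpha alternate rows, 2 alpha C-type genes, 21 beta genes, 12 gamma A genes, 7 gamma B genes and 3 gamma C-type genes. The libraries come from the cerebral cortex of adult, untreated C57BL/6J mice of the line Kcnip2-TRAP NIDA115, which carries the ribosomal protein L10a fused to EGFP (Kcnip2-EGFP/Rpl10a). Translating ribosome affinity purification (TRAP) pulls tagged ribosomes and their RNA out of a tissue homogenate with antibodies to EGFP. All 3 libraries are immunopurified samples of this 1 group, numbered replicates 1, 2 and 3 in their titles. The tag marks whichever cells use the Kcnip2 sequences of the transgene, so the profile is a mixture of those cells plus any RNA carried along. Libraries of input RNA, of the unbound fraction or of wild-type mice were not analysed here, so the values are levels within the immunoprecipitate and not enrichments. The labels give no age beyond adult and name no animal for a library. The spread between the 3 libraries, on which every p-value rests, may therefore be technical.

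Clustered protocadherins are cell-surface adhesion proteins of the cadherin superfamily that bind their own kind on the opposing membrane. Each alpha or gamma gene contributes its own large variable exon, with its own promoter, which is spliced to constant exons shared by the whole cluster; beta genes are single-exon genes with no constant exons. Individual neurons are known to switch on a small, largely random set of the alternate genes, through binding of CTCF and cohesin to promoters free of DNA methylation, while the C-type genes are used more uniformly. The resulting surface code lets the branches of a neuron recognise and avoid each other. A pool of many neurons, as here, averages over these choices.

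The 3 clusters lie one after another on chromosome 18 (GRCm38, the assembly named mm10; positions from RefSeq). Leaving aside 2 fusion rows described below, the alpha cluster spans 36930285 to 37188897, the beta cluster 37264998 to 37521419 and the gamma cluster 37661775 to 37841873. In each alpha transcript 2860 bases belong to exons shared with other alpha genes, against 2346 to 3028 unshared bases. In the gamma transcripts 2116 or 2119 bases are shared. A read in a shared exon cannot be assigned to 1 gene, and no source used here says how the authors' counting treated such reads. Levels between genes are therefore given per kilobase (kb) of unshared exon, taken from the transcript that carries the gene's RefSeq accession, which was found for 56 of the 57 members with a length; Pcdhgb8 was matched by symbol. Variable exons also resemble each other: a median of 14.9% of the 50-base stretches of an alpha alternate exon recur in another member, against 11.6% for gamma B, 3.35% for beta, 0.295% for gamma A and 0 for the C-type genes. Counts of single alpha alternate and gamma B genes are thus less certain than those of C-type and gamma A genes.

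Gene counts totalled 11602248, 13635132 and 14174384 in replicates 1, 2 and 3. The clustered protocadherins took 5846, 8298 and 9321 of these counts, which is 0.0504%, 0.0609% and 0.0658%. Values below are counts per 1000000 gene counts (CPM) on TMM-scaled library sizes, as mean ± SD over n = 3 libraries. A count of 0 allows a level of up to 0.256, 0.222 and 0.213 CPM in the 3 libraries (3 counts, counting error only). This bound does not cover reads that could not be assigned to a row. Pan-neuronal markers summed to 38556 to 44609 CPM, of which Snap25 alone gave 31380 to 36012 CPM. Astrocyte markers summed to 2529 to 4072 CPM, mostly from Slc1a2, Glul and Aldoc. GABAergic markers summed to 1429 to 1645 CPM and oligodendrocyte markers to 485 to 664 CPM. Endothelial and mural markers summed to 16.1 to 25.99 CPM, and 4 of the 6 had at least 1 CPM in every library. Among them Rgs5 was highest, at 5.71 to 9.53 CPM, and the tight junction gene Cldn5 was at 0 in replicates 2 and 3. Such sums rest on a few genes and are not proportions of cells.

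Most clustered protocadherin genes were present, and their levels were low to moderate. The detection rule required 1 CPM in each library. By this rule 44 of 59 members were detected, beside 37.3% of all gene rows. The same 44 passed edgeR's filter on low counts, which 38.5% of all gene rows passed. All 12 gamma A genes, all 5 C-type genes, 19 of 21 beta genes and 6 of 7 gamma B genes were detected, but only 2 of 14 alpha alternate rows were. Those 14 rows include 2 fusion rows and 3 genes paired with a fusion entry, described below, all with 0 counts. The 2 detected are among the 9 alternates without a fusion entry. In mean level, 2 members lay at 50 CPM or more, 20 at 10 CPM or more, 28 between 1 and 10 CPM and 6 above 0 but below 1 CPM, and 5 had no counts in any library. In a mixture of cells, fewer cells using a gene and less RNA per cell cannot be told apart.

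**Figure D1:**
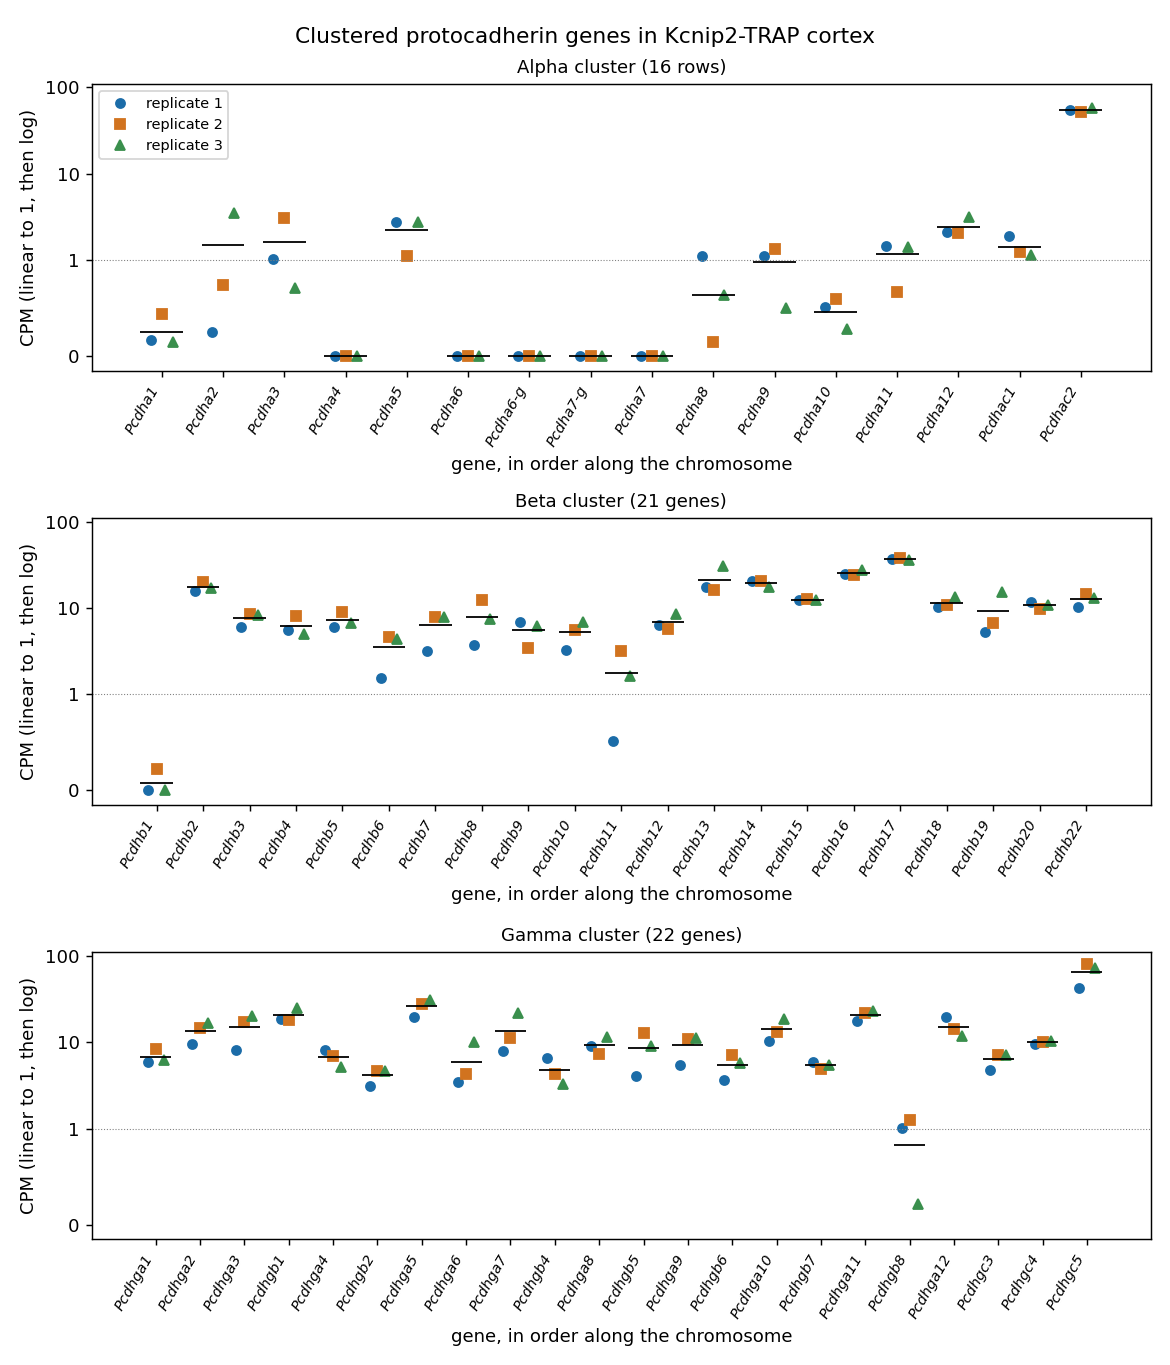
CPM (linear from 0 to 1, logarithmic above) of the 59 members in chromosome order, with 1 panel for each cluster; points are libraries, the bar is their mean and the dotted line is the detection level of 1 CPM. Pcdhac2 and Pcdhgc5, at the end of their clusters, stand highest, and 5 alpha rows lie at 0.

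By summed counts the beta cluster and the gamma cluster supplied most of the clustered protocadherin signal, and the alpha cluster little. The beta genes summed to 207, 242 and 257 CPM in replicates 1, 2 and 3, and the gamma genes together to 288 ± 56.5 CPM. The alpha cluster summed to 67.1 ± 4.33 CPM, and 81.2% ± 0.844 of its counts came from 1 gene, Pcdhac2. As shares of all clustered protocadherin counts, beta genes took 40.0% ± 1.43, gamma A 26.4% ± 1.83 and gamma C-type 13.7% ± 2.25. The alpha C-type genes took 9.59% ± 1.47, gamma B 8.48% ± 0.301 and alpha alternate 1.91% ± 0.227. The ranges of beta and gamma A over libraries did not overlap, and alpha alternate lay below every other class in each library.

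The order of the leading classes depended on length. Beta transcripts are annotated with up to 8695 unshared bases, against at most 2961 for gamma genes. Per kb of unshared exon, gamma A took 31.2% ± 2.07 and beta 30.2% ± 1.28, which overlap, while alpha alternate remained lowest at 2.43% ± 0.316. Per kb of union exon, which for alpha and gamma genes counts shared exons as well, beta took 47.4%.

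**Figure D2:**
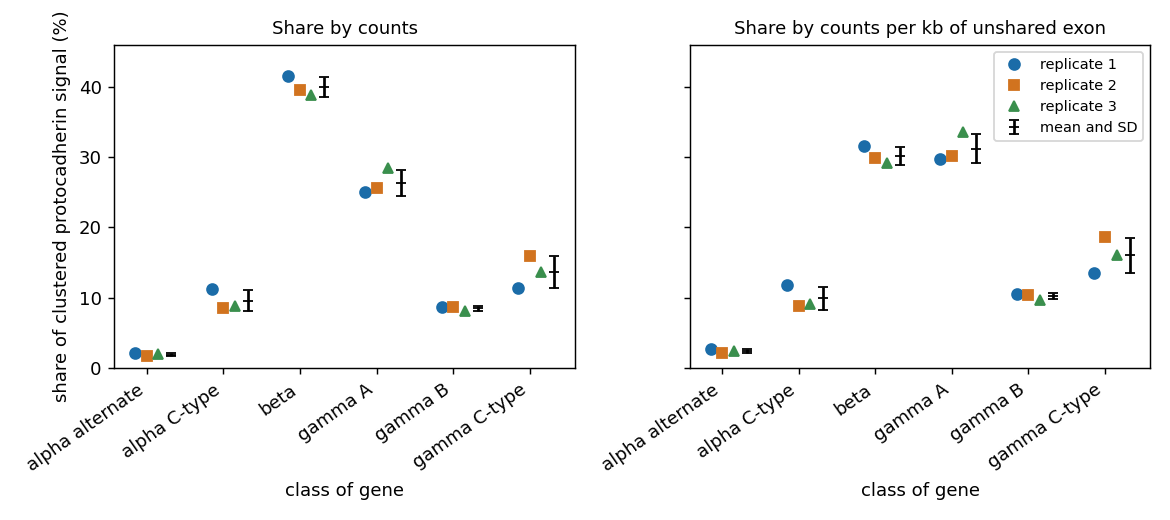
Share of the clustered protocadherin signal (%) of each of the 6 classes, by counts on the left and by counts per kb of unshared exon on the right; points are libraries and the error bars show mean and SD. Beta leads by counts, and beta and gamma A overlap per kb of unshared exon.

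The signal was spread over many genes in the beta and gamma A classes and concentrated in 1 gene in each C-type class. The inverse Simpson index gives the number of equally abundant genes that would produce the same concentration of counts. It was 12.9 ± 1.08 for the 21 beta genes and 9.72 ± 0.140 for the 12 gamma A genes. For gamma B it was 4.04 ± 0.550 of 7 genes, for alpha alternate 5.65 ± 0.463 of 14 rows (9 with reads), for gamma C-type 1.54 ± 0.127 of 3 genes and for alpha C-type 1.05 ± 0.0151 of 2 genes. Over all 59 members it was 23.3 ± 0.779.

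Among the C-type genes, Pcdhac2 and Pcdhgc5 stood above all other clustered protocadherins. Pcdhac2, the last gene of the alpha cluster by its start (37143678 to 37187663, constant exons included) and known for spacing the axons of serotonergic neurons, was at 54.3, 51.5 and 57.5 CPM in replicates 1, 2 and 3 (54.4 ± 2.96). Pcdhgc5, the last gene of the gamma cluster by its start (37819546 to 37841873, constant exons included), whose protein is known to associate with GABA-A receptors, was at 42.4, 80.0 and 73.2 CPM (65.2 ± 20.1). Pcdhac2 was thus steady over the libraries, and Pcdhgc5 was low in replicate 1. Per kb of unshared exon, Pcdhac2 was at 17.9, 17.0 and 19.0 CPM and Pcdhgc5 at 16.2, 30.5 and 27.9 CPM. Their order changed with the library, as the ratio of Pcdhgc5 to Pcdhac2 per kb was 0.901, 1.79 and 1.47.

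Both exceeded the highest of the 54 members that are not C-type in every library. That highest level was 36.8, 38.3 and 36.2 CPM without length correction, each from Pcdhb17, and 7.90, 10.8 and 12.2 CPM per kb of unshared exon. Together the pair supplied 19.4%, 21.5% and 19.8% of all clustered protocadherin counts. Divided by union exon length, Pcdhac2 still lay highest in replicate 1, at 9.22 CPM per kb, but Pcdhgc5, at 5.55, fell below Pcdhb17, at 7.90.

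The other C-type genes were much lower. Pcdhac1, the neighbour of Pcdhac2, was at 1.88, 1.26 and 1.13 CPM, so that Pcdhac2 was 24.5-, 34.7- and 42.8-fold higher per kb of unshared exon. Pcdhgc4, known to be required for the survival of cortical interneurons, was at 9.55, 10.1 and 10.3 CPM (10.003 ± 0.411). Pcdhgc3, known to promote dendrite branching in cortical neurons, was at 4.77, 7.16 and 7.08 CPM (6.34 ± 1.36). Per kb of unshared exon Pcdhgc4 was at 3.29 to 3.56 CPM and Pcdhgc3 at 1.86 to 2.79 CPM, without overlap. Pcdhgc5 lay above Pcdhgc4 by 4.92-, 8.77- and 7.84-fold and above Pcdhgc3 by 8.69-, 10.9- and 10.1-fold per kb. Pcdhgc5 took 79.2% ± 3.98 of gamma C-type counts, and Pcdhac2 97.4% ± 0.718 of alpha C-type counts.

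Of the alpha alternate genes, none reached 5 CPM in any library. Pcdha12 was highest in mean, at 2.13, 2.07 and 3.12 CPM (2.44 ± 0.589), followed by Pcdha5 at 2.73, 1.11 and 2.76 CPM (2.20 ± 0.946). These were the only alternates detected in all 3 libraries, and their ranges overlap. Pcdha3 had 12, 42 and 10 counts and Pcdha2, named after its values were seen, had 3, 10 and 49, so in each of these genes 1 library supplied most of the counts. Pcdha12 held 21.5% ± 2.08 of alpha alternate counts but did not lead in any library. Pcdha5 was highest in replicate 1, Pcdha3, at 3.10 CPM, in replicate 2 and Pcdha2, at 3.47 CPM, in replicate 3. The lowest alternate with reads was Pcdha1, at 0.252 ± 0.166 CPM.

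Of the 14 alpha alternate rows, 5 had a count of 0 in all 3 libraries. They were Pcdha4, Pcdha6 and Pcdha7, and the fusion rows Pcdha6-g and Pcdha7-g. Beside its entry as an alpha gene, RefSeq lists each of Pcdha4, Pcdha6 and Pcdha7 with a fusion entry that starts at or near the same exon and runs to the end of the gamma cluster at 37841873. The fusion entry of Pcdha4, the row Gm37013, is no member by symbol and was looked up after the values were seen; it also had 0 counts. So all 6 rows of these 3 pairs stood at 0, while 0 of the 9 alpha alternate genes without a fusion entry did. A count of 0 here says that no read was assigned to the row, and whether these exons are expressed was not tested. The Pcdha4, Pcdha6 and Pcdha7 transcripts contain the same constant exons as Pcdhac2, which held 637, 698 and 811 counts.

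The beta genes, whose proteins lack the shared cytoplasmic domain of the alpha and gamma proteins, covered a wide range of levels. In CPM, Pcdhb17 was highest at 36.8, 38.3 and 36.2 CPM (37.1 ± 1.05), followed by Pcdhb16 at 24.5, 24.2 and 27.8 CPM (25.5 ± 2.003). Pcdhb13 was at 17.3, 16.2 and 30.3 CPM (21.3 ± 7.84), high in replicate 3. Per kb of unshared exon the order below Pcdhb17, at 7.96 ± 0.226 CPM, was another: Pcdhb2, named here after its values were seen, was at 6.19 ± 0.774, Pcdhb13 at 5.74 ± 2.11 and Pcdhb16 at 4.89 ± 0.383. Pcdhb13 exceeded Pcdhb17 in replicate 3 on this scale, at 8.17 against 7.77 CPM, while Pcdhb2 and Pcdhb16 lay below Pcdhb17 in all 3 libraries. That order in replicate 3 depends on the length used. RefSeq gives Pcdhb17 a span of 3270 bases, against 4660 unshared bases here, and Pcdhb13 3693 against 3710. With the RefSeq spans Pcdhb13 would stay below Pcdhb17 in replicate 3. Pcdhb17 held 15.9% ± 1.83 of beta counts. Pcdhb15, chosen for its steadiness after the values were seen, was at 12.4, 12.6 and 12.3 CPM.

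At the low end, Pcdhb11 was at 0.511, 3.18 and 1.63 CPM and Pcdhb1 had 0, 3 and 0 counts. These were the only beta genes not detected. Sets of 7 genes in chromosome order were drawn up after the values were seen. The median level per kb of unshared exon was 1.81 CPM for Pcdhb1 to Pcdhb7, 2.24 CPM for Pcdhb8 to Pcdhb14 and 3.01 CPM for Pcdhb15 to Pcdhb22. Within each set the range was wide, from 0.0285 to 6.19 CPM per kb in the first set and from 1.27 to 7.96 in the last. With RefSeq's gene spans as lengths the last median was 4.12 CPM per kb and the order stayed. These values describe positions only, with no test.

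The gamma A genes were the most even class for their number. Pcdhga5 was highest in mean, at 19.4, 27.5 and 31.0 CPM (25.98 ± 5.92), followed by Pcdhga11 at 17.5, 21.7 and 23.0 CPM (20.7 ± 2.87). Pcdhga12 went the other way between libraries, at 19.5, 14.1 and 11.97 CPM (15.2 ± 3.89). In replicate 1 Pcdhga12 reached the CPM of Pcdhga5, but per kb of unshared exon it lay below, at 6.59 against 7.64 CPM. The lowest in mean were Pcdhga4, at 6.74 ± 1.43 CPM, and Pcdhga6, at 3.49, 4.28 and 10.1 CPM (5.95 ± 3.58). Without replicate 3 the mean of Pcdhga6 was 3.90 CPM. Per kb of unshared exon Pcdhga5, the highest gamma A gene in mean, exceeded Pcdhga6, the lowest in mean, by 5.71-, 6.61- and 3.16-fold in replicates 1, 2 and 3. In replicate 3 Pcdhga4 was the lowest, at 2.01 CPM per kb against 3.85 for Pcdhga6.

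The gamma B genes were lower and less even. Pcdhgb1 was at 18.8, 18.2 and 25.2 CPM (20.7 ± 3.92) and held 41.6% ± 6.56 of the counts of its class. Pcdhgb5 was at 4.09, 12.7 and 9.07 CPM (8.62 ± 4.32) and Pcdhgb6 at 3.67, 7.09 and 5.81 CPM (5.52 ± 1.73). Pcdhgb1 was above every other gamma B gene in all 3 libraries. Pcdhgb2, at 4.14 ± 0.852 CPM, was the lowest in mean of the genes detected. Pcdhgb4, named after its values were seen, was below it in replicates 2 and 3. Pcdhgb4 was at 4.28 and 3.33 CPM there, against 4.65 and 4.61 CPM for Pcdhgb2. Pcdhgb8, which RefSeq classes as a transcribed pseudogene, was not detected, with 12, 17 and 3 counts.

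Ordered by level per kb of unshared exon, the members formed a nearly continuous series. The leading genes were Pcdhgc5 at 24.9 ± 7.66, Pcdhac2 at 17.98 ± 0.977, Pcdhga5 at 10.2 ± 2.33, Pcdhb17 at 7.96 ± 0.226, Pcdhgb1 at 7.95 ± 1.502 and Pcdhga11 at 7.85 ± 1.09 CPM per kb. The places of beta genes in this order depend on the length used, since RefSeq spans are much shorter for some, as for Pcdhb17 and Pcdhb14. Over the 54 members with reads, 50 of 53 neighbouring pairs in this order had overlapping ranges over the 3 libraries. The exceptions were Pcdhac2 above Pcdhga5, Pcdhb16 above Pcdhb15 and Pcdhb15 above Pcdhga9. The order was similar in each library: over the 44 detected members, Spearman's rho of CPM was 0.835 between replicates 1 and 2, 0.827 between 1 and 3 and 0.889 between 2 and 3. These values run across genes of the same libraries, which are not independent replicates.

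**Figure D3:**
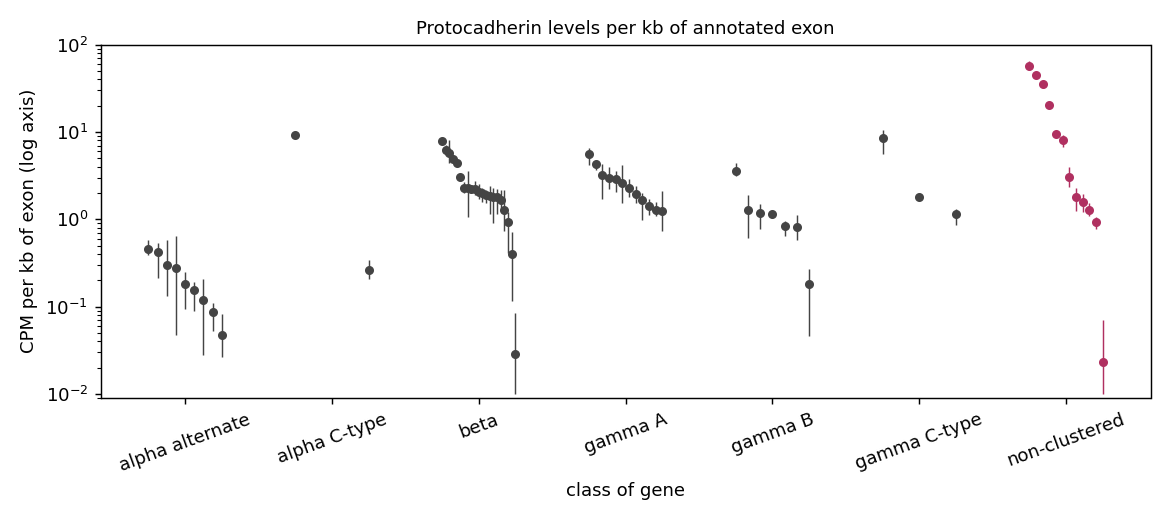
Mean CPM per kb of union exon (logarithmic axis) of the clustered protocadherins with reads, by class, and of 12 non-clustered protocadherins; each point is a gene and each line runs from its lowest to its highest library, down to the axis limit of 0.01 where a library had no reads. On this scale 5 of the non-clustered genes lie above the highest clustered one in mean. Per kb of unshared exon Pcdhgc5, at 24.9 CPM in mean, exceeds the values plotted for Pcdh10 (20.3) and Pcdh17 (9.45). Pcdhac2 (17.98) and Pcdhga5 (10.2) per kb of unshared exon also exceed the value plotted for Pcdh17.

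No member varied between libraries beyond genes of its level by the adjusted test. A quasi-dispersion test, computed here from edgeR's fit, asks whether a gene's spread over the 3 libraries exceeds the trend for all genes. Its p-values took Benjamini-Hochberg adjustment over 12509 genes, with a threshold of 0.05. The test called 0 of 44 members, beside 0.104% of all genes tested. At an unadjusted p under 0.05 there were 8 of 44 members, beside 5.84% of all genes. These 8 were Pcdhgc5, Pcdhga7, Pcdhb19, Pcdhga3, Pcdhb8, Pcdhb13, Pcdhgb5 and Pcdhga6, and those outside the naming rule are listed after their values were seen. Pcdhgc5 had the smallest adjusted p (quasi-dispersion test on the edgeR fit with Benjamini-Hochberg adjustment, 0.437). Under the other settings run the smallest adjusted p of any member in this test was 0.381 to 0.898. Pcdhga7 was at 8.01, 11.2 and 21.8 CPM, Pcdhga3 at 8.10, 17.0 and 20.4 CPM, Pcdhb19 at 5.28, 6.72 and 15.3 CPM and Pcdhb8 at 3.75, 12.5 and 7.37 CPM. All 4 were lowest in replicate 1. The median coefficient of variation was 23.6% for the members, 15.2% for all genes tested and 18.4% for the 9328 genes in the members' range of levels.

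Replicate 1 was the lowest library for many members. It was lowest for 25 of 44, beside 36.6% of all genes tested, against 11 in replicate 2 (31.8% of all genes) and 8 in replicate 3 (31.6%). By class, replicate 1 was lowest for 9 of 12 gamma A genes, 3 of 3 gamma C-type genes, 10 of 19 beta genes, 3 of 6 gamma B genes and 0 of 4 alpha genes. The median log2 deviation from a gene's own mean was -0.21, 0.05 and 0.18 for the members in replicates 1, 2 and 3, and -0.39, 0.06 and 0.33 for gamma A genes. The median over all genes tested was within 0.01 of 0 in each library. Replicate 1 also had the lowest depth and the largest share of reads that did not align uniquely, 19.4% against 15.8% and 13.8%.

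Several marker lists were also lower in replicate 1 by their medians, though not in every gene. The median log2 deviation in replicates 1, 2 and 3 was -0.24, 0.06 and 0.23 for 4 glutamatergic markers, which summed to 6671, 8193 and 9089 CPM, and -0.11, 0.01 and 0.10 for 7 pan-neuronal markers. Replicate 1 was lowest for 4 of 4 glutamatergic, 5 of 7 pan-neuronal, 6 of 8 astrocyte, 3 of 6 microglial, 4 of 6 endothelial and mural and 3 of 4 oligodendrocyte precursor markers. The astrocyte genes Aldh1l1 and Gfap, at 9.80 and 14.8 CPM, and the oligodendrocyte lineage gene Olig2, at 21.2 CPM, were highest in replicate 1. The median deviation was -0.35, 0.33 and 0.01 for 8 astrocyte markers, all of them detected, -0.55, 0.14 and 0.19 for 6 microglial markers, of which 3 were detected (33.5 to 55.7 CPM summed), and -0.47, 0.29 and -0.03 for 6 endothelial and mural markers, of which 4 were detected. Oligodendrocyte precursor markers, 4 of 4 detected, were at -0.28, 0.16 and 0.15, and oligodendrocyte markers, 6 of 7 detected, at -0.02, 0.21 and -0.05. GABAergic markers, all 4 detected, went the other way at 0.20, -0.07 and -0.07. Of 3 choroid plexus markers Folr1 was at 0, and Ttr was at 42.0 CPM in replicate 2 alone. The part of these differences in the protocadherin values was not tested.

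**Figure D4:**
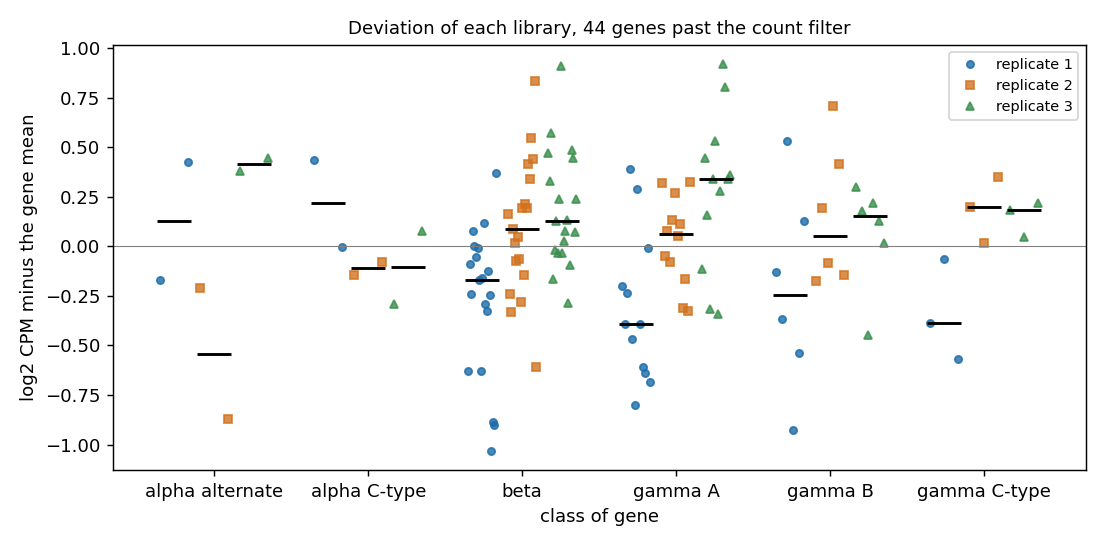
Deviation of each library from the gene's own mean (log2 CPM), for the 44 members past the count filter by class; points are genes, coloured by library, and bars are medians. Gamma A genes lie mostly below 0 in replicate 1, with a median of -0.39, and mostly above 0 in replicate 3, with a median of 0.33.

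Genes known to choose and silence clustered protocadherin promoters were detected. Of 17 listed genes 16 had a row, 15 were detected and 0 were called by the between-library test. The shares over all genes were 37.3% of rows detected and 0.104% of genes tested called. The list had a median of 6.06 ± 0.16 log2 CPM against 4.33 for all genes tested. In mean CPM, the cohesin ring genes Smc3 and Smc1a were highest, at 258 ± 34.4 and 251 ± 21.5 CPM, followed by the cohesin regulator Pds5b at 158 ± 3.96 CPM. Per kb of union exon, Rad21, another cohesin subunit gene, came next after the ring genes at 26.6 CPM, against 16.05 for Pds5b. Ctcf, named for its known role at these promoters, was at 72.9, 78.6 and 82.6 CPM (78.0 ± 4.89). The methyltransferase gene Dnmt3b, known to methylate these promoters in early development, was the lowest at 0, 0.665 and 0.567 CPM.

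Genes of partner and processing proteins were all detected, 15 of 15, beside 37.3% of all gene rows. Their median was 6.37 ± 0.15 log2 CPM, and 0 were called, beside 0.104% of all genes tested. The highest, in CPM and per kb of union exon, were Cyfip2, Nckap1 and Wasf1, at 1743 ± 66.8, 1174 ± 25.7 and 369 ± 57.1 CPM, which encode members of the WAVE complex that links protocadherin tails to actin. Psen2, a catalytic subunit gene of the gamma-secretase that cleaves alpha and gamma protocadherins, was the lowest in mean CPM, at 5.25 ± 0.510. Ret, a receptor tyrosine kinase gene, was below it in replicate 1, at 4.26 against 5.03 CPM, and per kb of union exon, at 0.903 against 1.21 CPM.

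Some non-clustered protocadherins, single genes outside these clusters with no shared exons, were more abundant than any clustered gene in CPM, and others were not. Of 12, 11 were detected, beside 37.3% of all gene rows, and 0 were called, beside 0.104% of all genes tested. Their median was 5.58 ± 0.24 log2 CPM. Pcdh1, Pcdh7 and Pcdh10 led in CPM at 507 ± 58.0, 372 ± 36.4 and 322 ± 10.6 CPM, and the endothelial gene Pcdh12 was lowest at 0, 0 and 0.425 CPM. Per kb of union exon, Pcdh9 came after Pcdh1, at 44.9 against 57.6 CPM, ahead of Pcdh7 at 35.1 and Pcdh10 at 20.3. Pcdhgc5, at 24.9 CPM per kb of unshared exon in mean, lay above this value of Pcdh10. In mean CPM, 6 of the 12 lay above every clustered gene. The others lay within the range of the clustered genes, among them Pcdh8 at 13.8, Pcdh20 at 8.63 and Pcdh18 at 6.94 CPM. All 59 clustered rows together summed to 498, 613 and 660 CPM, which is 1.11, 1.08 and 1.30 times Pcdh1 alone without length correction. Per kb of unshared exon the clustered genes summed to 158, 198 and 214 CPM. Pcdh1, per kb of union exon, was at 51.1, 64.3 and 57.6 CPM.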

How the data were processed

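The deposited values are read counts per gene symbol, not normalized by the authors, 1 table per library. The tools and build named are STAR 2.0.0e, HTSeq and mm10, per the submitters' processing notes. No source used here gives the counting mode, strand handling or gene annotation. Counter summary rows were left out. Of tallied reads, 2.37% to 2.65% were ambiguous.

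CPM used TMM scaling (edgeR 4.0.16, R 4.3.3), and log2 CPM a prior count of 2. Variation between libraries was tested on 12509 genes past filterByExpr (minimum count 10) with an intercept-only robust glmQLFit. The F ratio of quasi-dispersion to trend was formed from this fit and is not a test that edgeR itself provides. Its p-value used the largest prior degrees of freedom of the fit for every gene, in place of the gene-wise robust values. These p-values were adjusted by Benjamini-Hochberg. Tested on simulated data of 12509 genes, this test recovered 92 of 100 genes with a 4-fold and 100 of 100 with a 16-fold change in 1 library, with 2 false calls. The simulation gave all genes 1 dispersion and used the levels of all genes tested (median 20.1 CPM, against 9.17 for the members). Smaller changes were not simulated, and every tested member differed by less than 4-fold, at most 3.33-fold in Pcdhb8. Library pairs differed by more than sampling noise (chi-square per degree of freedom 12.3 to 28.5).

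Exon lengths came from GENCODE M21 (GRCm38), and positions and fusion entries from RefSeq (GRCm38.p6). Members and lists were chosen with earlier results of these data known. The rule for named genes took, per class, every C-type gene, the 3 highest and 2 lowest by mean CPM, members at 0 or called, and from each list the 3 highest and the lowest. Rad21, Ret, Pcdh9 and single marker genes were named after their values were seen. Alternatives included other scalings, filters, detection levels and lengths, and leaving out each library.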

Additional observations from a re-analysis of the deposited data

How the results depend on the processing

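The count of 44 detected members ranged from 41 to 47 over other detection levels and was 45 to 47 with 1 library left out. The between-library test called 0 members under every setting run, with 4 to 9 at an unadjusted p under 0.05. Levels of the 23 named members with reads moved by less than 1 SD in all 115 other settings. Leaving out 1 of 3 libraries cannot by arithmetic move a mean by 1 SD, so for those settings this count is no check. In 5 of the settings a level moved by over 1.5-fold, all with 1 library left out. They were Pcdha3 (range 0.868 to 2.07 CPM), Pcdhb11 (1.08 to 2.39 CPM), Pcdhga6 (3.90 to 7.13 CPM) and, in 2 settings, Pcdhb1 (0 to 0.111 CPM). Length moved the class values. Per kb of unshared exon the shares were 2.43% for alpha alternate, 30.2% for beta, 31.2% for gamma A, 10.2% for gamma B and 16.03% for gamma C-type. Per kb of union exon they were 7.99% for alpha C-type, 47.4% for beta, 7.51% for gamma B and 9.44% for gamma C-type. With RefSeq spans for the beta genes, a setting added after seeing the data, they were 2.30% for alpha alternate, 34.1% for beta, 29.5% for gamma A and 9.67% for gamma B. Summed levels per kb of unshared exon were 4.58 CPM per kb for alpha alternate, 18.5 for alpha C-type, 57.1 for beta (68.1 with RefSeq spans), 59.6 for gamma A, 19.4 for gamma B and 30.8 for gamma C-type. With only the members past the count filter, alpha alternate genes took 0.807% of counts, with an inverse Simpson index of 1.93, since only 2 genes are left. Per kb of union exon the list medians were 2.56 log2 for regulation genes, 3.89 for partners and 2.29 for non-clustered protocadherins. No paired analysis was possible because the 3 libraries form 1 group. Depth limits the alpha alternate genes most, with 123 to 184 counts per library for the whole class.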
